A study of Mus musculus with 6 samples.

Results

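Heat shock chaperones, mainly those of the cytosol, the nucleus and the mitochondrion, were followed in C2C12 myoblasts under cyclic stretch. The members were taken by gene symbol: the HSP70, HSP90 and small HSP genes, the mitochondrial chaperonin, the CCT subunits, the J-domain (DNAJ) genes, the BAG genes, the heat shock factors and 6 further co-chaperone or chaperone genes, without 6 genes of the endoplasmic reticulum (ER). This gave 92 members of the 22375 rows of the table. The rule did not remove every ER protein, and the ER-membrane protein Dnajb12 is a member. The rule uses no measured value.

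Chaperones bind unfolded or newly made proteins and help them to fold, and many are made in larger amounts when proteins are damaged by heat, oxidation or mechanical load. HSF1, the master factor of this heat shock response, is held inactive by chaperones, forms trimers when they are occupied, and binds repeats of the short sequence GAA, turned in alternate directions, in the promoters of its targets. In muscle, HSP70 and the small HSPs attach to stretched cytoskeletal proteins, while mitochondria hold a folding system of their own with a separate HSP70, a J-domain partner and a barrel-shaped chaperonin.

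C2C12 is an established line of mouse myoblasts, the precursors of muscle fibers. The CON group was cultured without stretch, and the 4H group was stretched cyclically at 15% elongation for 4 h on an elastic poly-lysine-coated plate; both were untreated otherwise, as far as the labels say. Poly(A) RNA of 3 libraries per group was sequenced, and the value of a gene is its FPKM, the fragments counted on it, scaled by transcript length and by the total of the library. The labels call the libraries replicate biosamples and do not say that they came from separate cultures, so the p-values measure the spread between these 3 libraries, which may be technical.

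Of 6 myoblast markers, 5 averaged 1 FPKM or more, and Pax7 did not. They went both ways: Des, Itga7, Cdh15 and Myod1 were higher in the 4H group (log2 fold changes of 0.31, 0.87, 0.68 and 1.74), and Myf5 was lower (-0.67, limma, BH-adjusted p = 0.000347). The summed level of the myoblast markers, most of it from Des and Itga7, ranged from 154 to 158.5 FPKM in the CON group and from 226.9 to 238.7 FPKM in the 4H group. Of 6 markers of differentiating myotubes only Acta1 reached a mean of 1 FPKM, and their sum ranged from 1.80 to 2.40 FPKM in CON and from 3.09 to 3.74 FPKM in 4H, while Myog, a defining gene of this list that was too low to be tested, lay lower in 4H (0.281, 0.136 and 0.235 FPKM in CON, and 0.0794, 0 and 0 FPKM in 4H). The 3 fibroblast markers summed to 3.75 to 4.19 FPKM in CON and 5.99 to 7.63 FPKM in 4H. The leukocyte sum, 6.73 to 8.51 FPKM in CON and 15.0 to 17.6 FPKM in 4H, came almost entirely from Cd68, and the defining leukocyte gene Ptprc was at 0 in all 6 libraries. Endothelial, epithelial and adipocyte markers summed, each type by itself, to at most 0.261 FPKM in each library. The part of these markers in the results below was not tested. FPKM summed to between 395790 and 397260 in the CON libraries and to between 385146 and 387516 in the 4H libraries.

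Of the 92 members, 77 averaged 0.5 FPKM or more across the 6 libraries and were tested, each of them above this limit in both groups. The other 15 reached at most 0.491 FPKM in any library, and 3 of them (Dnajb8, Dnajc5b and Dnajc5g) were listed at 0 in all 6. At an adjusted p of at most 0.05 (limma on log2(FPKM + 0.5), with Benjamini-Hochberg (BH) adjustment over all 11593 genes tested), 17 members were higher in the 4H group and 20 were lower. SE stands for the standard error of limma from here on. These calls are 22.1% and 26.0% of the members tested, beside 22.6% and 24.1% of all genes tested, so the shares of the members were close to those of the whole table. With every library rescaled to the same sum (TPM), the split was 22 higher and 15 lower of 78 members tested (28.2% and 19.2%), beside 25.2% and 18.7% of the 12457 genes tested on that scale. In the main test 3 members, Hspa1a, Hspa1b and Cryab alone, also changed by at least 1 on the log2 scale. All 3 rose, where 3.88% of all genes tested passed both thresholds in either direction and 2.61% did so upward.

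All 4H libraries lay above all CON libraries for 25 of the 77 members tested (32.5%) and below them for 26 (33.8%), beside 27.5% and 29.2% of all genes tested. The median log2 fold change of the 77 members was -0.002, and that of all genes tested was -0.01. Most called changes were small: 25 of the 37 called members changed by less than 0.5 on the log2 scale. Of the 37 calls, 24 held in each of the 18 alternatives in which Hspa1a and Hspa1b were kept apart, wherever the gene was tested, 11 of them higher and 13 lower. The 13 lost in at least 1 of these (Cct2, Cct7, Cct8, Dnajb4, Dnajb5, Dnajb12, Dnajc13, Dnajc14, Hsf2, Hsp90aa1, Hspa4, Hspb8 and Hspbp1) had changes of at most 0.522 in size on the log2 scale.

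**Figure D1:**
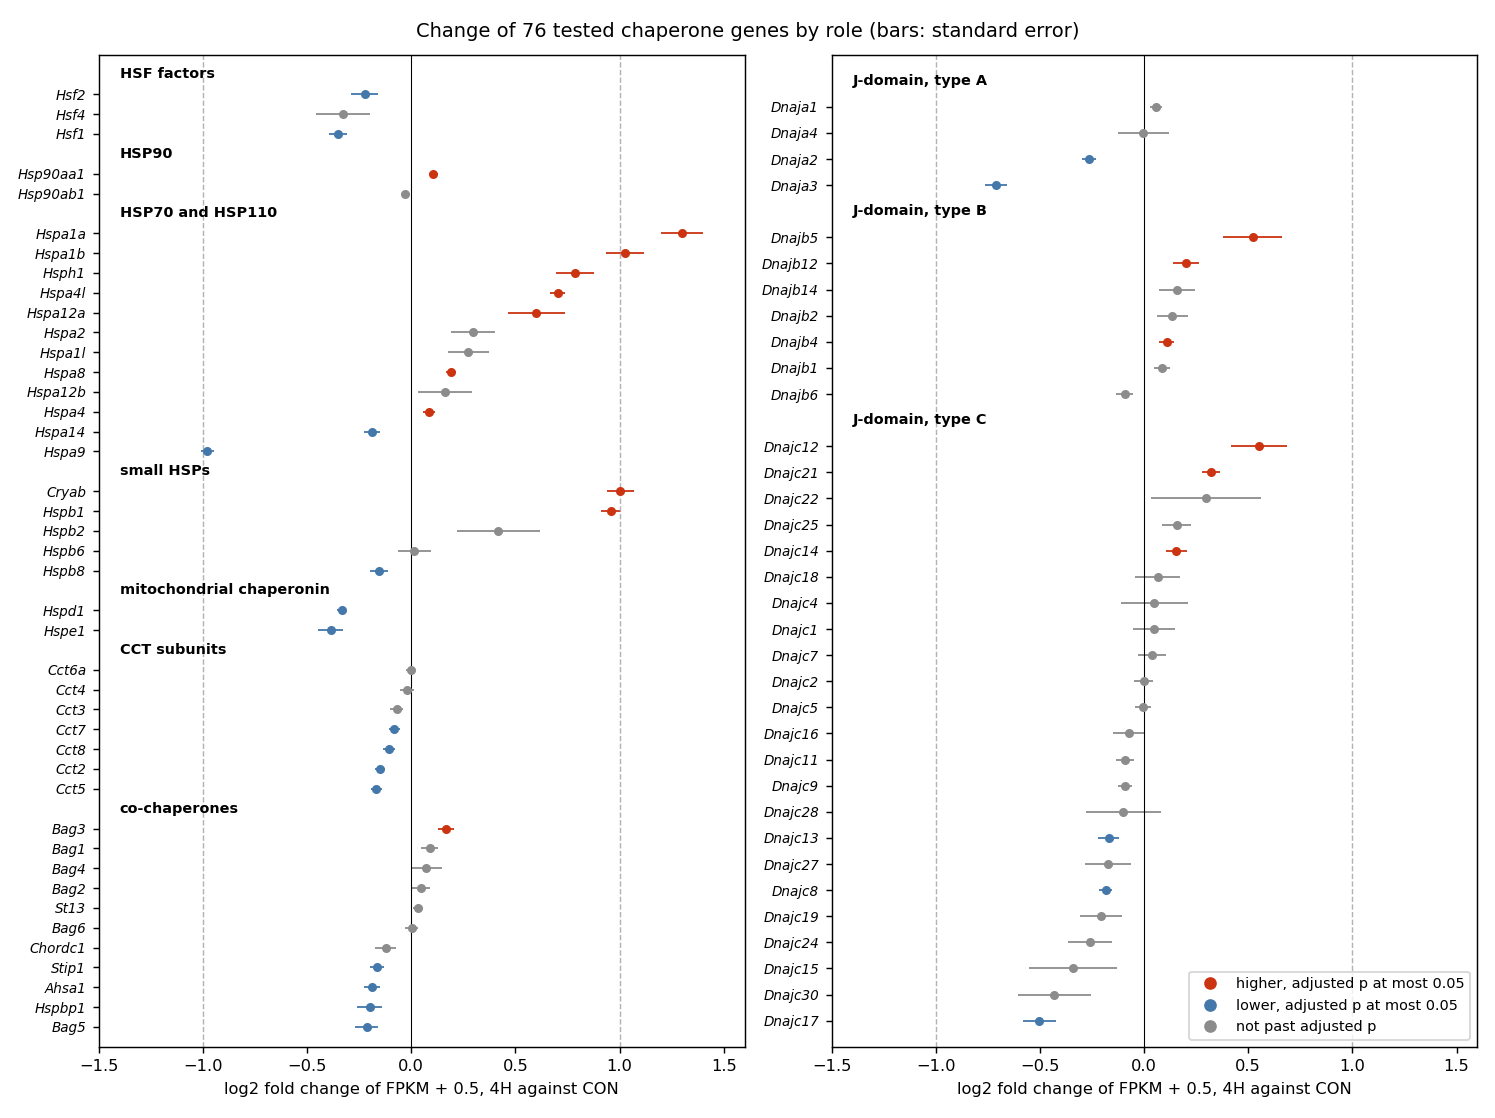
Log2 fold change of 76 of the 77 tested members, 4H against CON, grouped by role, with the standard error from limma as a bar and the threshold of 1 as dashed lines. Hspa1a (1.30), Hspa1b (1.03), Cryab (1.00) and Hspb1 (0.96) lie farthest to the right, and Hspa9 (-0.98) and Dnaja3 (-0.71) lie farthest to the left.

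Of the heat shock factors, Hsf1 and Hsf2 fell after stretch. Hsf1 had CON levels of 34.6, 35.7 and 36.2 FPKM and 4H levels of 27.4, 28.9 and 27.0 FPKM. Hsf1 did not overlap between the groups and was lower in all stretched libraries. Hsf1 fell by 0.35 on the log2 scale (SE 0.04, limma, BH-adjusted p = 0.000231). Hsf2 had CON levels of 14.3, 15.7 and 15.9 FPKM and 4H levels of 13.8, 12.4 and 12.9 FPKM. Hsf2, a factor that can join HSF1 in mixed trimers, fell: a log2 fold change of -0.22 (SE 0.06, limma, BH-adjusted p = 0.0193). This call was lost without CON replicate 2 or 3 or without 4H replicate 2 or 3 (BH-adjusted p between 0.0522 and 0.0689). Hsf4 had CON levels of 1.83, 1.72 and 1.39 FPKM and 4H levels of 1.37, 1.20 and 1.05 FPKM. The levels of Hsf4, a factor best known from the lens, did not overlap between the groups, with a log2 fold change of -0.33 (SE 0.13, limma, BH-adjusted p = 0.0706), which misses the threshold. Hsf4 passed with quantile normalization, without CON replicate 3 and when limma was fitted without a trend (BH-adjusted p between 0.0236 and 0.0482). Hsf3 and Hsf5 were at most 0.0612 and 0.188 FPKM in any library and were not tested, nor was Hsf2bp, a gene named for binding to HSF2 that reached at most 0.251 FPKM.

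Among the 12 HSP70 and HSP110-type genes, 7 rose and 2 fell at the adjusted p, with a median log2 fold change of 0.28, beside 22.6% higher, 24.1% lower and a median of -0.01 for all genes tested. The same 2 shares are the background of each count by role below, and no count by role was tested against them. Hspa1a and Hspa1b, which encode the stress-inducible HSP70, rose most. Hspa1a had CON levels of 3.04, 3.18 and 3.32 FPKM and 4H levels of 7.95, 7.87 and 10.0 FPKM. For Hspa1a the 3 stretched libraries were all above the 3 control libraries. Hspa1a rose by 1.30 on the log2 scale (SE 0.10, limma, BH-adjusted p = 2.30e-05). Hspa1b had CON levels of 12.1, 10.9 and 12.0 FPKM and 4H levels of 21.7, 23.6 and 27.9 FPKM. No Hspa1b value of one group reached those of the other, and 4H was the higher group. Hspa1b rose by 1.03 on the log2 scale (SE 0.09, limma, BH-adjusted p = 4.76e-05). Hspa1b passed the fold threshold narrowly: without CON replicate 2 the log2 fold change was 0.98, and without 4H replicate 3, its highest library, it was 0.93. Messenger RNA per cell and the number of cells that carry it cannot be told apart in such bulk samples.

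Both genes lie on chromosome 17 (mm10, GENCODE M21), Hspa1a at chr17:34969190-34972156 and Hspa1b at chr17:34956436-34959238, both on the minus strand and each with 1 exon. Of the 75-base stretches of their transcripts, 61.7% of those of Hspa1a and 55.8% of those of Hspa1b recur in a transcript of another gene, each other included, and the handling of fragments that match both is not given in the sources used here. Their sum avoids the split between the pair, but not that with other genes such as Gm20481 and Gm10501. The summed level was 15.1, 14.1 and 15.3 FPKM in the CON libraries and 29.7, 31.5 and 38.0 FPKM in the 4H libraries. The sum rose by 1.12 on the log2 scale (SE 0.09, limma, BH-adjusted p = 2.40e-05).

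The promoters show how alike the pair is also outside the transcribed part. The 250 bases before each start are printed because these genes rose most, with Hspb1, a small HSP described below, for comparison. They come from RefSeq (GRCm38.p6) and read 5′ to 3′ along the strand of the gene. Capitals mark 2 heat shock units facing each other (GAANNTTC). The Hspa1a stretch is chr17:34972157-34972406 on the minus strand, that of Hspa1b is chr17:34959239-34959488 on the minus strand, and that of Hspb1 is chr5:135887669-135887918 on the plus strand.
Hspa1a: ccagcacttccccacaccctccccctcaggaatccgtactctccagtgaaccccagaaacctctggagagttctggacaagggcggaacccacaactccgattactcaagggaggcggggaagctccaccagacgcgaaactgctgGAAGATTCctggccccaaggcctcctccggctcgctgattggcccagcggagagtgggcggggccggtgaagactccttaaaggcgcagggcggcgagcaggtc
Hspa1b: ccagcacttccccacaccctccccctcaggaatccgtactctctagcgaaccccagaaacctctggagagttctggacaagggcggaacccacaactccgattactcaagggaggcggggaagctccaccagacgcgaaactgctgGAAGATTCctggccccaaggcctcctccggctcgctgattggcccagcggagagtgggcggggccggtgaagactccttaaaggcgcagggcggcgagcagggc
Hspb1: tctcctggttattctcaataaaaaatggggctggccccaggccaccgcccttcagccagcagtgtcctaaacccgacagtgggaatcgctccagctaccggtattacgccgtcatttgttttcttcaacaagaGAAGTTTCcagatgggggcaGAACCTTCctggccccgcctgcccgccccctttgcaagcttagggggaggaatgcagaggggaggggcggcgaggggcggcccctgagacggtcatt
The Hspa1a and Hspa1b stretches differ at 3 of 250 bases (98.8% identity), and in both the marked letters lie at -104 to -97 from the start. In Hspb1 the marked letters lie at -117 to -110 and at -97 to -90.

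The inducible pair stayed far below Hspa8, the constitutive HSP70 of the cytosol known as HSC70. Hspa8 had CON levels of 584, 584 and 580.1 FPKM and 4H levels of 669, 654 and 672 FPKM. Every 4H value of Hspa8 lay above every CON value. Hspa8 rose by 0.19 on the log2 scale (SE 0.02, limma, BH-adjusted p = 0.000278). With quantile normalization its log2 fold change was 0.38. Of its 75-base transcript stretches 41.3% recur in other genes. Hspa1a and Hspa1b together were at 2.59%, 2.41% and 2.64% of the Hspa8 level in the CON libraries and at 4.43%, 4.81% and 5.65% in the 4H libraries. The log2 ratio of the pair to Hspa8 was 0.93 higher in the 4H group, with no overlap between the groups (exact permutation test, two-sided, p = 0.1, the smallest that 3 libraries against 3 allow, and BH-adjusted p = 0.2 over 4 ratios). The ratio was higher in each stretched library than in any control library.

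The exchange factors of the HSP110 type, which release ADP from HSP70 and so let it drop its client, rose as well. Hsph1 had CON levels of 39.5, 32.4 and 34.2 FPKM and 4H levels of 64.2, 54.1 and 65.8 FPKM. Hsph1 did not overlap between the groups and was higher in all stretched libraries. Hsph1 rose by 0.79 on the log2 scale (SE 0.09, limma, BH-adjusted p = 0.000225). Hspa4l had CON levels of 36.5, 36.1 and 35.0 FPKM and 4H levels of 57.2, 58.6 and 60.4 FPKM. For Hspa4l the 3 stretched libraries were all above the 3 control libraries. Hspa4l rose by 0.70 on the log2 scale (SE 0.04, limma, BH-adjusted p = 2.34e-06). None of the 75-base stretches of Hsph1 and 0.181% of those of Hspa4l recur in another gene. Hspa4, the most abundant of the 3 exchange factors, ranged from 102.1 to 103.2 FPKM in CON and from 106.8 to 110.5 FPKM in 4H, a log2 fold change of 0.08 (limma, BH-adjusted p = 0.0354) whose call was lost in 8 of 18 alternatives. Hspa12a had CON levels of 4.51, 6.71 and 5.02 FPKM and 4H levels of 9.19, 8.47 and 7.49 FPKM. Hspa12a, an atypical and distant HSP70 relative, did not overlap between the groups and rose: a log2 fold change of 0.60 (SE 0.14, limma, BH-adjusted p = 0.0077).

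**Figure D2:**
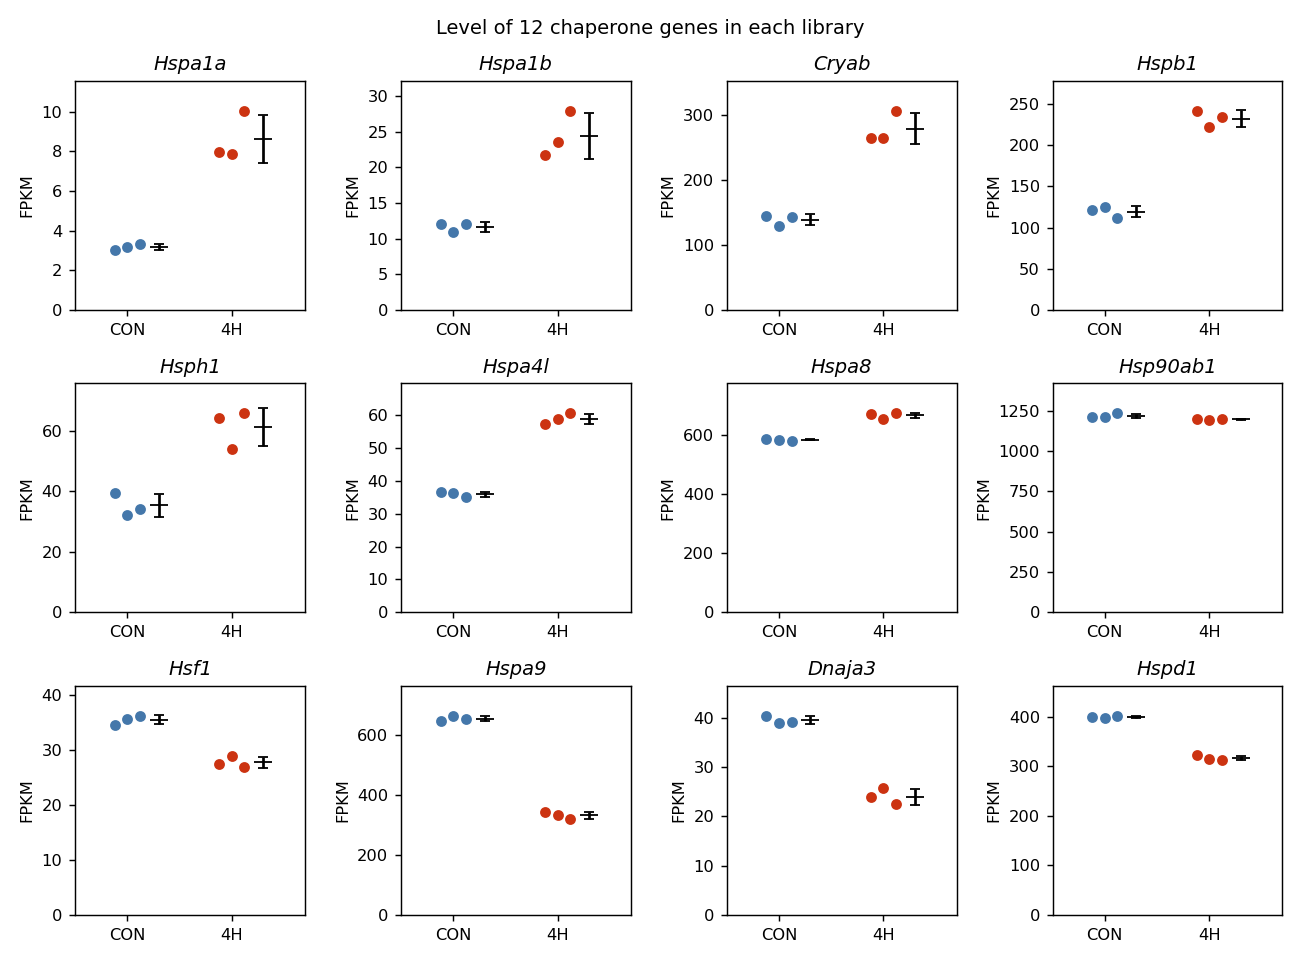
FPKM of 12 members in each library (points; CON blue, 4H red), with the mean and SD of 3 libraries as black bars, each vertical axis starting at 0. The groups do not overlap in any of the 12 panels, but Hsp90ab1 had a log2 fold change of -0.03 (0.01 with TPM) while Hspa9 fell from a mean of 656 to 332 FPKM. The 12 are a selection: 26 of the 77 tested members overlap between the groups.

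Hspa9 fell most of all 77 members tested. Hspa9 encodes mortalin, the HSP70 of the mitochondrial matrix, which pulls imported proteins across the inner membrane and folds them. Hspa9 had CON levels of 649, 665 and 654 FPKM and 4H levels of 343, 335 and 319 FPKM. No Hspa9 value of one group reached those of the other, and 4H was the lower group. Hspa9 fell by 0.98 on the log2 scale (SE 0.03, limma, BH-adjusted p = 2.09e-07). Without 4H replicate 1 Hspa9 fell by 1.00 on the log2 scale and passed the fold threshold too. In the CON libraries Hspa9 was at 111%, 114% and 113% of the Hspa8 level, and in the 4H libraries at 51.3%, 51.2% and 47.5%. The order of these abundant HSP70 messages was Hspa9 above Hspa8 in every CON library and the reverse in every 4H library. Of the 75-base stretches, 0.336% of those of Hspa9 and 41.3% of those of Hspa8 recur in another gene. The handling of shared fragments is not given, so the order of Hspa9 and Hspa8 within a group is uncertain. Hspa14, an HSP70 that works at the ribosome, ranged from 42.5 to 45.5 FPKM in CON and from 38.0 to 38.2 FPKM in 4H and also fell: a log2 fold change of -0.19 (SE 0.04, limma, BH-adjusted p = 0.00429).

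Dnaja3 (Tid1), the J-domain partner of mortalin in the matrix, fell too. Dnaja3 had CON levels of 40.4, 39.0 and 39.2 FPKM and 4H levels of 23.8, 25.6 and 22.4 FPKM. Every 4H value of Dnaja3 lay below every CON value. Dnaja3 fell by 0.71 on the log2 scale (SE 0.05, limma, BH-adjusted p = 1.67e-05). Exons of Dnaja3 overlap those of Vasn on the same strand and of Coro7 on the other. The mitochondrial chaperonin is a barrel of HSP60 (Hspd1) with a lid of HSP10 (Hspe1). Hspd1 had CON levels of 399.8, 397 and 402 FPKM and 4H levels of 322, 315 and 314 FPKM. Hspd1 did not overlap between the groups and was lower in all stretched libraries. Hspd1 fell by 0.33 on the log2 scale (SE 0.02, limma, BH-adjusted p = 1.34e-05). Of the 75-base stretches of Hspd1 33.7% recur in other genes. Hspe1 had CON levels of 177, 169 and 169 FPKM and 4H levels of 119, 143 and 133 FPKM. For Hspe1 the 3 stretched libraries were all below the 3 control libraries. Hspe1 fell by 0.39 on the log2 scale (SE 0.06, limma, BH-adjusted p = 0.00111).

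Hspd1 and Hspe1 lie head to head on chromosome 1, Hspd1 at chr1:55077835-55088243 on the minus strand and Hspe1 at chr1:55088132-55091307 on the plus strand, and share 1 promoter region. The log2 ratio of Hspd1 to Hspe1 ranged from 1.17 to 1.25 in CON and from 1.14 to 1.43 in 4H, and the mean difference was 0.05 (exact permutation test, two-sided, p = 0.8, BH-adjusted p = 0.8 over 4 ratios). It turned to -0.03 without 4H replicate 1. The shared region holds a run of 4 heat shock units in alternate directions, written in capitals in this 30-base stretch from RefSeq (GRCm38.p6, chr1:55088053-55088082, plus strand, which lies in an exon of 1 annotated Hspd1 transcript). It is shown because the run lies before the annotated start of Hspe1 and inside the annotated span of Hspd1. The annotated spans of both genes overlap. Members with a run or a pair went both ways, as counted below.
Hspe1: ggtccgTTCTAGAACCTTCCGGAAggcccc

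A list of 9 members that act in mitochondria was drawn up after the values were seen and is therefore given without a test. The list may be incomplete and held Hspa9, Hspd1, Hspe1, Dnaja3, Dnajc11, Dnajc15, Dnajc19, Dnajc28 and Dnajc30. None of them rose (limma, 0 also at an unadjusted p under 0.05) and 4 fell at the adjusted p, beside 22.6% higher and 24.1% lower among all genes, with a median log2 fold change of -0.34 and a range of -0.98 to -0.09. The other 5, all J-domain genes, did not pass: Dnajc30, Dnajc15, Dnajc19, Dnajc28 and Dnajc11 had log2 fold changes of -0.43, -0.34, -0.21, -0.10 and -0.09. Of the 68 other members tested 17 were higher and 16 lower, with a median of 0.04.

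**Figure D3:**
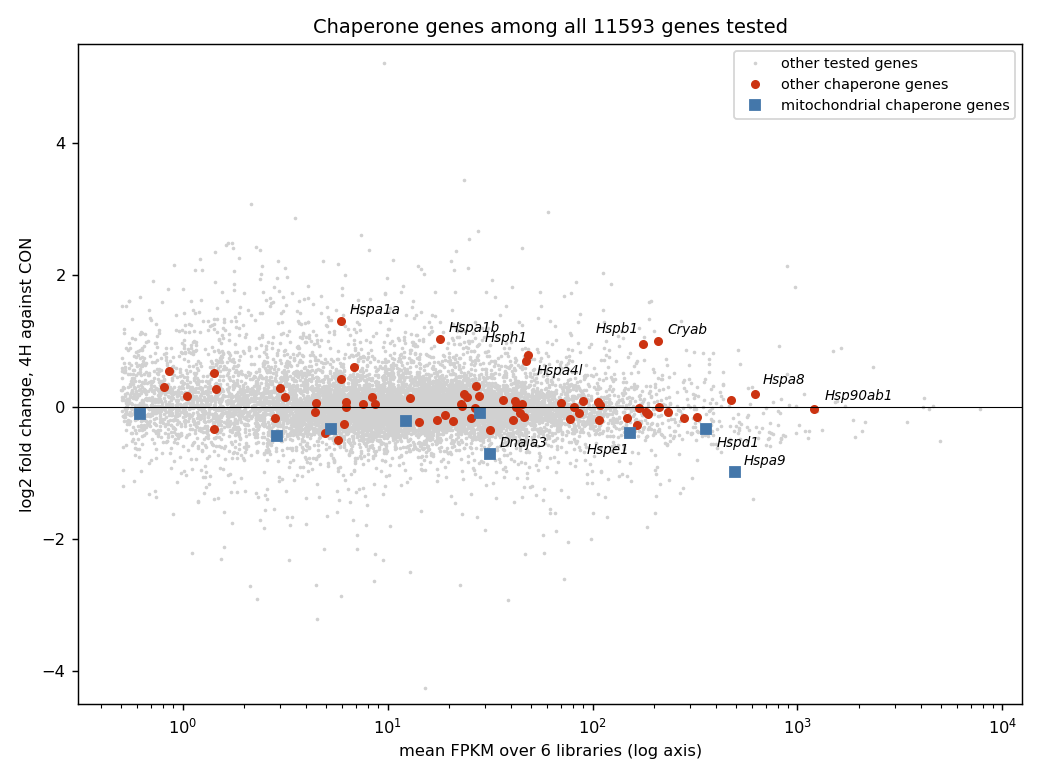
Log2 fold change, 4H against CON, of every tested gene against its mean FPKM over 6 libraries (log axis), with 9 mitochondrial chaperone genes as blue squares, the other members as red points and the remaining genes in grey. The 9 genes marked by blue squares lie below 0, and the members as a whole lie within the cloud of all genes, with a median of -0.002 beside -0.01.

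The cytosolic HSP90 genes had log2 fold changes of at most 0.11 in size, which became 0.22 with quantile normalization. HSP90 completes the folding of kinases and receptors, with Hsp90ab1 as the constitutive and Hsp90aa1 as the more inducible form. Hsp90ab1 had CON levels of 1209.8, 1213 and 1233 FPKM and 4H levels of 1199, 1191 and 1197 FPKM. Hsp90ab1, the member with the highest level, did not overlap between the groups but missed the threshold, with a log2 fold change of -0.03 (SE 0.02, limma, BH-adjusted p = 0.337), which turned to 0.01 with TPM. Hsp90aa1 had CON levels of 460.2, 454 and 451 FPKM and 4H levels of 494, 488 and 487 FPKM. No Hsp90aa1 value of one group reached those of the other, and 4H was the higher group. Hsp90aa1 rose by 0.11 on the log2 scale (SE 0.02, limma, BH-adjusted p = 0.00578). Among 75-base stretches of Hsp90aa1, 53.1% occur also elsewhere, beside 0.736% of those of Hsp90ab1. This call was lost when limma was fitted without a trend (BH-adjusted p = 0.0581). The log2 ratio of Hsp90aa1 to Hsp90ab1 ranged from -1.45 to -1.39 in CON and from -1.30 to -1.28 in 4H, a difference of 0.13 (exact permutation test, two-sided, p = 0.1, the smallest possible, BH-adjusted p = 0.2 over 4 ratios).

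Small HSPs hold unfolding proteins in a soluble state without using ATP, and in muscle they bind desmin and actin filaments. Of 8 members 5 could be tested, 2 rose and 1 fell. Cryab had CON levels of 144, 129 and 143 FPKM and 4H levels of 266, 265 and 307 FPKM. Every 4H value of Cryab lay above every CON value. Cryab rose by 1.00 on the log2 scale (SE 0.07, limma, BH-adjusted p = 8.45e-06). Cryab (alpha B-crystallin), a partner of desmin, sat on the fold threshold: the log2 fold change was 0.95 without CON replicate 2, 0.93 without 4H replicate 3 and 1.06 at most among the alternatives. Hspb1 had CON levels of 121, 125 and 112 FPKM and 4H levels of 242, 222 and 234 FPKM. Hspb1 did not overlap between the groups and was higher in all stretched libraries. Hspb1 rose by 0.96 on the log2 scale (SE 0.05, limma, BH-adjusted p = 2.07e-06). Hspb1 (HSP25, known in human as HSP27), which caps and guards actin filaments, was the other small HSP that rose. Of its 75-base stretches 47.3% recur in the pseudogene Hsp25-ps1 or in Gm9817.

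Cryab and Hspb1 together went from 265, 254 and 255 FPKM in the CON libraries to 507, 486 and 540.5 FPKM in the 4H libraries, a far higher level per length than that of the inducible HSP70 pair. Hspb8 had CON levels of 49.4, 47.1 and 49.4 FPKM and 4H levels of 45.5, 43.9 and 41.4 FPKM. Hspb8, which works with Bag3 to send damaged filament proteins to autophagy, fell: a log2 fold change of -0.16 (SE 0.04, limma, BH-adjusted p = 0.0203). This call was lost with TPM, without a trend in limma, and without CON replicate 1 or 3 or 4H replicate 3 (BH-adjusted p between 0.0502 and 0.0665). Hspb6 ranged from 21.8 to 24.6 FPKM in CON and from 21.0 to 26.0 FPKM in 4H, and the groups overlapped. Hspb3, Hspb7 and Hspb9 were under the limit for testing.

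Cryab lies beside Hspb2 on the other strand, and exons of their annotated transcripts overlap (Cryab at chr9:50751325-50756636, plus strand; Hspb2 at chr9:50751078-50752354, minus strand). Hspb2 is another small HSP of muscle. Hspb2 had CON levels of 3.58, 6.87 and 4.73 FPKM and 4H levels of 5.79, 7.70 and 6.78 FPKM. The levels of Hspb2 overlapped between the groups, with a log2 fold change of 0.42 (SE 0.20, limma, BH-adjusted p = 0.123). With 1 library left out, the log2 fold change of Hspb2 ranged from 0.22 without CON replicate 1, its lowest CON library (limma, BH-adjusted p = 0.346), to 0.64 without CON replicate 2, its highest (BH-adjusted p = 0.0121). Of the 75-base stretches of Hspb2, 25.5% recur in Cryab, and whether fragments were counted by strand is not given. The log2 ratio of Cryab to Hspb2 ranged from 4.13 to 5.15 in CON and from 5.02 to 5.40 in 4H, a difference of 0.59 (exact permutation test, two-sided, p = 0.2, BH-adjusted p = 0.267 over 4 ratios). This difference was 0.31 without CON replicate 2 and 0.82 without CON replicate 1.

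**Figure D4:**
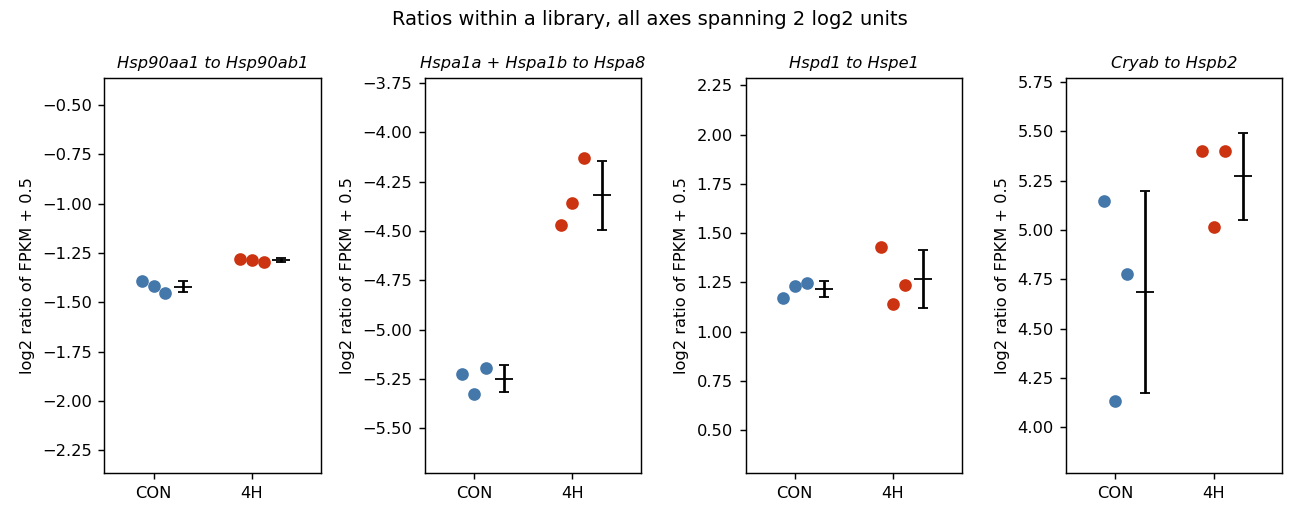
Log2 ratio of FPKM + 0.5 within each library for 4 gene pairs (points; CON blue, 4H red), with the mean and SD of 3 libraries in black and all axes spanning 2 log2 units. The groups do not overlap for Hsp90aa1 to Hsp90ab1 and for Hspa1a plus Hspa1b to Hspa8, and they overlap for the other 2 pairs.

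CCT is the chaperonin of the cytosol that folds actin and tubulin. Of 7 subunit genes tested none was higher (limma, 0 also at an unadjusted p under 0.05) and 4 were lower, with log2 fold changes between -0.17 and -0.002 and a median of -0.08. The 4 calls became 2 with TPM and 1 with quantile normalization, in which the highest log2 fold changes were 0.03 and 0.06. Cct5 had CON levels of 304, 292 and 294 FPKM and 4H levels of 262, 269 and 263 FPKM. For Cct5 the 3 stretched libraries were all below the 3 control libraries. Cct5 fell by 0.17 on the log2 scale (SE 0.03, limma, BH-adjusted p = 0.00139). Cct2 had CON levels of 341, 345 and 339.8 FPKM and 4H levels of 310.2, 305 and 309 FPKM. No Cct2 value of one group reached those of the other, and 4H was the lower group. Cct2 fell by 0.15 on the log2 scale (SE 0.02, limma, BH-adjusted p = 0.00103). The Cct2 call was lost with quantile normalization (BH-adjusted p = 0.0671). Cct3, Cct4 and Cct6a overlapped between the groups, and Cct6b was under the limit for testing. Cct8l1, a relative of Cct8, was also under it.

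J-domain proteins bring clients to HSP70 and start its ATP hydrolysis. Of 41 members 34 were tested, 6 were higher and 5 lower, and 23 did not pass, with a median log2 fold change of -0.003, which was 0.03 with TPM and 0.01 with quantile normalization. In type A, besides Dnaja3, the cytosolic Dnaja2 fell. Dnaja2 had CON levels of 184, 178 and 177 FPKM and 4H levels of 145, 155 and 148 FPKM. Every 4H value of Dnaja2 lay below every CON value. Dnaja2 fell by 0.26 on the log2 scale (SE 0.03, limma, BH-adjusted p = 0.000365). Dnaja1 had CON levels of 68.5, 69.2 and 68.7 FPKM and 4H levels of 72.5, 70.8 and 71.5 FPKM. Its cytosolic relative Dnaja1 did not overlap between the groups but did not pass the threshold, with a log2 fold change of 0.06 (SE 0.03, limma, BH-adjusted p = 0.134). Dnaja1 passed with TPM (log2 fold change 0.09, BH-adjusted p = 0.0293) and with quantile normalization (0.09, BH-adjusted p = 0.0295).

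Type B held 3 genes that rose and none that fell among 7 tested (limma, 0 lower also at an unadjusted p under 0.05), beside 22.6% and 24.1% of all genes. Dnajb5 had CON levels of 0.809, 1.31 and 1.14 FPKM and 4H levels of 1.86, 1.63 and 1.79 FPKM. Dnajb5 did not overlap between the groups and was higher in all stretched libraries. Dnajb5 rose by 0.52 on the log2 scale (SE 0.14, limma, BH-adjusted p = 0.0171). Dnajb5, a cytosolic relative of Dnajb1, lost the call without 4H replicate 1 (BH-adjusted p = 0.0511). Dnajb12 had CON levels of 21.6, 21.3 and 22.6 FPKM and 4H levels of 23.3, 27.4 and 25.0 FPKM. The ER-membrane protein Dnajb12, whose J domain faces the cytosol, rose: a log2 fold change of 0.20 (SE 0.06, limma, BH-adjusted p = 0.0282). That call was lost without a trend in limma and without CON replicate 1 or 2 or 4H replicate 2 or 3 (BH-adjusted p between 0.0518 and 0.0807).

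Dnajb1, the main heat-inducible J-domain partner of HSP70 in the cytosol, did not pass. Dnajb1 had CON levels of 41.1, 42.0 and 39.1 FPKM and 4H levels of 42.3, 43.9 and 43.6 FPKM. The groups did not overlap, with a log2 fold change of 0.09 (SE 0.04, limma, BH-adjusted p = 0.104), which misses the threshold. Dnajb1 passed with TPM (BH-adjusted p = 0.0341) and with quantile normalization (BH-adjusted p = 0.0461). Dnajb6 had CON levels of 89.1, 86.6 and 90.6 FPKM and 4H levels of 88.0, 80.0 and 81.6 FPKM. Dnajb6, a suppressor of protein aggregation, overlapped between the groups, with a log2 fold change of -0.09 (SE 0.04, limma, BH-adjusted p = 0.0991). Dnajb6 passed without 4H replicate 1 (log2 fold change -0.13, BH-adjusted p = 0.0197).

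Among 23 tested genes of type C, whose members serve diverse tasks, 3 rose, 3 fell and 17 did not pass. Dnajc12 had CON levels of 0.631, 0.714 and 0.47 FPKM and 4H levels of 1.13, 1.17 and 1.05 FPKM. For Dnajc12 the 3 stretched libraries were all above the 3 control libraries. Dnajc12 rose by 0.55 on the log2 scale (SE 0.13, limma, BH-adjusted p = 0.0105). Dnajc21 had CON levels of 24.1, 22.8 and 24.9 FPKM and 4H levels of 30.3, 29.4 and 30.2 FPKM. No Dnajc21 value of one group reached those of the other, and 4H was the higher group. Dnajc21 rose by 0.32 on the log2 scale (SE 0.04, limma, BH-adjusted p = 0.000527). Dnajc12 assists the aromatic amino acid hydroxylases, and Dnajc21 takes part in the making of ribosomes. Dnajc17 had CON levels of 6.28, 6.99 and 7.25 FPKM and 4H levels of 4.46, 4.58 and 4.98 FPKM. Every 4H value of Dnajc17 lay below every CON value. Dnajc17 fell by 0.50 on the log2 scale (SE 0.08, limma, BH-adjusted p = 0.00114). Dnajc8 had CON levels of 80.4, 83.4 and 82.8 FPKM and 4H levels of 72.4, 70.8 and 73.6 FPKM. Dnajc8 did not overlap between the groups and was lower in all stretched libraries. Dnajc8 fell by 0.18 on the log2 scale (SE 0.03, limma, BH-adjusted p = 0.0016). Dnajc17 and Dnajc8 are both tied to splicing of messenger RNA. Dnajc7, which binds HSP70 and HSP90 and has the second highest level of this type, ranged from 41.9 to 48.3 FPKM in CON and from 42.9 to 49.9 FPKM in 4H and overlapped.

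Of 11 co-chaperones 1 rose and 4 fell, beside 22.6% and 24.1% of all genes. Bag3 had CON levels of 27.2, 25.9 and 26.0 FPKM and 4H levels of 29.5, 29.1 and 30.4 FPKM. For Bag3 the 3 stretched libraries were all above the 3 control libraries. Bag3 rose by 0.17 on the log2 scale (SE 0.04, limma, BH-adjusted p = 0.0095). Bag3 joins HSP70 to the small HSPs and is a known sensor of tension in muscle. Bag5 had CON levels of 21.3, 23.4 and 22.6 FPKM and 4H levels of 18.3, 19.2 and 20.4 FPKM. No Bag5 value of one group reached those of the other, and 4H was the lower group. Bag5 fell by 0.21 on the log2 scale (SE 0.06, limma, BH-adjusted p = 0.0137). Bag5 and Hspbp1 are exchange factors of HSP70. Hspbp1 had CON levels of 19.4, 17.6 and 19.3 FPKM and 4H levels of 17.2, 16.3 and 15.3 FPKM. Hspbp1 fell: a log2 fold change of -0.20 (SE 0.06, limma, BH-adjusted p = 0.0276). This call was lost with TPM and without CON replicate 1 or 3 or 4H replicate 2 or 3 (BH-adjusted p between 0.0611 and 0.0882).

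Stip1 had CON levels of 162, 150.5 and 156 FPKM and 4H levels of 141, 136 and 141 FPKM. Every 4H value of Stip1 lay below every CON value. Stip1 fell by 0.16 on the log2 scale (SE 0.03, limma, BH-adjusted p = 0.00508). Stip1 (HOP) hands clients from HSP70 to HSP90, and Ahsa1, which speeds the ATPase of HSP90, ranged from 110.5 to 117.0 FPKM in CON and from 95.5 to 102.8 FPKM in 4H and fell as well: a log2 fold change of -0.19 (SE 0.04, limma, BH-adjusted p = 0.00447). St13 had CON levels of 108, 108 and 109 FPKM and 4H levels of 112, 109 and 110.4 FPKM. St13 (HIP), which holds HSP70 on its client, was higher in every 4H library but missed the threshold, with a log2 fold change of 0.03 (SE 0.03, limma, BH-adjusted p = 0.347). Bag1, Bag2, Bag4, Bag6 and Chordc1 did not pass either.

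Heat shock units were counted in the promoters of all members that the RefSeq table holds, 72 of 92, from 250 bases before to 50 bases after the start, on both strands. A pair of facing units (GAANNTTC or TTCNNGAA) was found in 22 of the 72 (30.6%), beside 4587 of 27025 genes with a promoter (17.0%). A run of 3 units, in which 2 such pairs overlap, was found in 5 members (6.94%: Chordc1, Dnajb6, Hspd1, Hspe1 and Hsph1), beside 179 of all genes (0.662%). By direction, a pair was found in 6 of 13 members that rose (Bag3, Dnajb4, Hspa1a, Hspa1b, Hspb1 and Hsph1), in 5 of 18 that fell (Cct2, Cct5, Hspb8, Hspd1 and Hspe1), in 7 of 27 that did not pass and in 4 of 14 that were not tested (Cct8l1, Dnajc5g, Hsf5 and Hspb3). Hspd1 and Hspe1 share the bases of their run, which are counted once for each gene. Of the 5 members with a run of 3 units, Hsph1 rose, Hspd1 and Hspe1 fell, and Chordc1 and Dnajb6 did not pass. A match is a description of the letters and not a measured binding site. The table does not include Bag4, Cct4, Cryab, Dnajc2, Dnajc5, Dnajc5b, Dnajc11, Dnajc12, Dnajc18, Dnajc22, Dnajc30, Hsf1, Hsf4, Hsp90aa1, Hsp90ab1, Hspa8, Hspa9, Hspb2 and St13, among others.

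Lists of genes that work with the chaperones but are not members were set beside them. The background of each count here and in the lists below is 22.6% higher and 24.1% lower of all genes tested. With TPM it is 25.2% and 18.7%, and no count was tested against these shares. Of 19 other co-chaperones of HSP90 and HSP70 tested, 2 were higher and 11 lower, with a median log2 fold change of -0.16, and with TPM 6 were lower. Fkbp4 had CON levels of 119, 115 and 122 FPKM and 4H levels of 93.5, 95.3 and 94.7 FPKM. Fkbp4 fell by 0.33 on the log2 scale (SE 0.03, limma, BH-adjusted p = 7.05e-05). Ahsa2 had CON levels of 10.5, 11.1 and 11.1 FPKM and 4H levels of 17.9, 16.7 and 18.4 FPKM. Ahsa2 rose by 0.67 on the log2 scale (SE 0.05, limma, BH-adjusted p = 2.96e-05). Fkbp4 is an immunophilin that serves steroid receptors, Ahsa2 is a relative of Ahsa1, and neither overlapped between the groups. Of 9 prefoldin and CCT-helper genes 1 was higher (Pdcl3, log2 fold change 0.40) and 3 were lower (Pfdn6 most, with -0.55).

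Other mitochondrial chaperones, exchange factors and proteases numbered 11, of which 2 were higher and 5 lower at the adjusted p, with a median of -0.16. Lonp1 had CON levels of 170.1, 164 and 164 FPKM and 4H levels of 60.9, 64.7 and 66.5 FPKM. Lonp1 fell by 1.37 on the log2 scale (SE 0.04, limma, BH-adjusted p = 1.22e-07). Lonp1, the matrix protease that removes damaged proteins, did not overlap between the groups and passed both thresholds. Trap1 had CON levels of 56.9, 55.3 and 56.0 FPKM and 4H levels of 39.6, 39.8 and 39.7 FPKM. Trap1 fell by 0.49 on the log2 scale (SE 0.03, limma, BH-adjusted p = 6.82e-06). Trap1, the mitochondrial HSP90, did not overlap either. The exchange factors of mortalin went in opposite directions, Grpel1 with a log2 fold change of 0.21 (limma, BH-adjusted p = 0.00491) and Grpel2 with -0.30 (BH-adjusted p = 0.00225).

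Of 18 ER chaperones and partners, which include the 6 genes left out of the members, 13 were higher and 2 lower, beside 22.6% and 24.1% of all genes, with a median of 0.37. Creld2 had CON levels of 25.4, 24.5 and 26.5 FPKM and 4H levels of 48.4, 47.8 and 54.7 FPKM. Creld2 rose by 0.97 on the log2 scale (SE 0.06, limma, BH-adjusted p = 5.58e-06). Sdf2l1 had CON levels of 9.10, 9.01 and 10.1 FPKM and 4H levels of 16.7, 19.0 and 19.2 FPKM. Sdf2l1 rose by 0.92 on the log2 scale (SE 0.07, limma, BH-adjusted p = 2.51e-05). Both encode ER proteins that are made during folding stress, and neither overlapped between the groups. The ER HSP70 Hspa5 had a log2 fold change of 0.11 and the ER HSP90 Hsp90b1 one of 0.73.

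Of 5 other genes described as heat-inducible through HSF1 (Ubb, Hmox1, Sqstm1, Serpinh1 and Dedd2), none was higher (limma, 0 also at an unadjusted p under 0.05) and 4 were lower, with a median of -0.42. Serpinh1 is also on the ER list and is counted among the lower genes there. The factor behind each of these changes was not tested. Sqstm1 had CON levels of 913, 865 and 854 FPKM and 4H levels of 341, 328 and 327 FPKM. Sqstm1 fell by 1.40 on the log2 scale (SE 0.03, limma, BH-adjusted p = 7.06e-08). Hmox1 had CON levels of 140.2, 125 and 129 FPKM and 4H levels of 74.6, 66.3 and 60.4 FPKM. Hmox1 fell by 0.97 on the log2 scale (SE 0.08, limma, BH-adjusted p = 2.37e-05). Sqstm1 (p62) carries aggregates to autophagy and Hmox1 breaks down heme. Both were lower in every 4H library than in any CON library.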

How the data were processed

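The authors deposited 1 table of FPKM values, with 1 column for each of the 6 C2C12 libraries, from strand-specific poly(A) libraries sequenced as paired ends. The submitters' processing notes name the mouse build mm10. The aligner, the counting tool, its strand setting and its handling of fragments that match several genes were not given in the sources used here. Since FPKM carries no read numbers, the depth is unknown and errors come from the spread of 3 libraries. Relative depth, read from genes below 0.1 FPKM, differed by at most 1.55% between libraries, on 12 to 23 genes per pair. These genes were the most closely matching of 562 to 796 per pair. Only log ratios under 0.1 in size were searched, so a larger difference could not have been found.

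The test was limma 3.58.1 in R 4.3.3 (lmFit, eBayes with trend, two-sided) on log2(FPKM + 0.5) for all genes averaging 0.5 FPKM or more, with Benjamini-Hochberg adjustment over all 11593 genes tested. The study's count model was not used, since FPKM is normalized. A fold change on this scale understates the change of low genes. A gene was higher or lower at an adjusted p of at most 0.05, and past both thresholds if it also changed by 1 or more on the log2 scale. The 4 ratios were tested with exact permutation tests in SciPy 1.17.1 (Python 3.11.15, pandas 2.3.3). The limma step was tested on simulated data. Coordinates, exon overlaps and 75-base stretches shared between transcripts came from GENCODE M21, and promoters from RefSeq.

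The members and lists were chosen with earlier results of these data known. Named genes were all members past both thresholds, in each class the 2 largest rises, the 2 largest falls and the 2 highest levels, every heat shock factor, the genes of the 4 ratios, and up to 2 genes per list of non-members. The mitochondrial list, Hsph1, Hspa4l, Hspa4, Hspa12a, Hspb6, Ahsa1, Grpel1, Grpel2, Hspa5 and Hsp90b1 were chosen after their values were seen. Alternatives were other pseudocounts, filters and scalings, a replicate block, limma without a trend or with array weights, and each library left out in turn. A fit corrected for GC content and transcript length, and one with Hspa1a and Hspa1b summed, were added after seeing the data. The values of 1 tested member and of 1 gene of the HSF1 target list are not reported here.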

Additional observations from a re-analysis of the deposited data

How the results depend on the processing

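Of 677 values of 36 named members under 19 alternatives, 639 kept their direction and their side of the threshold, 22 lost the call (7 genes), 13 gained it and 3 changed sign. The sign changes were those of Hsp90ab1 with TPM (0.0086) and of Dnajc7 without CON replicate 2 (-0.0058) and without 4H replicate 3 (-0.0190), none of them past the threshold; Dnajc7 ranged up to 0.0945 with 1 library left out. The number of members past both thresholds ranged from 1 (without CON replicate 2 or without 4H replicate 3, with Hspa1a alone) to 4 (without 4H replicate 1, with Hspa9 added) when 1 library was left out. Hspb1 passed the fold threshold with quantile normalization and with correction for GC content and length (4 members past both in each), Cryab missed it with array weights and Hspa1b with a pseudocount of 1 (2 members in each). The median log2 fold change of the members, -0.002, was 0.0155 with no filter, 0.0344 with TPM, 0.0130 with that correction, 0.0041 with quantile normalization and 0.0037 with array weights, and ranged from -0.0218 to -0.0030 with 1 library left out. The log2 ratio of Hspd1 to Hspe1 ranged from -0.0283 to 0.1164 with 1 library left out. The causes of these moves were not tested.

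The labels give both groups replicate numbers 1 to 3, but same-numbered libraries did not deviate together (correlations 0.025, -0.093 and -0.126), and no library correlated best with the library of its own number in the other group. The library names number the stretched libraries otherwise, replicate 2 being 4H3 and replicate 3 being 4H4. By these names C1 and 4H1 (0.025) and C3 and 4H3 (0.176) share a number, and no source says that a number marks a shared culture or day. With the replicate block 16 members were higher, 21 lower and 3 past both thresholds, and Hspb2 passed the threshold (adjusted p = 0.0236, limma). With 3 libraries a group and no read numbers, differences of low genes could not be weighed against counting error.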
